A study of Mus musculus with 18 samples.

Results

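Wdfy1, a protein of early endosomes, was described here together with 9 relatives and partners in the brains of mice carrying different forms of human APOE. The 10 genes, of 52433 symbols in the count table, are the Wdfy family (Wdfy1, Wdfy2, Wdfy3 and Wdfy4) and the kinases and complexes that make or use phosphatidylinositol 3-phosphate (PI3P): Pikfyve, Fig4, Vac14, Pik3c3, Pik3r4 and Pik3c2a. Wdfy1 was selected on its low level in APOE4 mice in these same libraries, so its values in comparisons with APOE4 are given as a description and without a test. The other 9 were taken for their family or function, with earlier results of these data known. All 10 were found, and all 10 passed the filter on low counts.

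The mice were targeted-replacement animals homozygous for human APOE4 (APOE4/APOE4), APOE2 (APOE2/APOE2) or APOE3 (APOE3/APOE3), with 6 mice per genotype, 3 females and 3 males, all on a C57bl/6 background and all 12 months old. Hemibrains were profiled by polyA RNA-seq with 1 library per mouse, in a series whose title concerns endosomes and exosome release in the aging brain. Since every mouse carries a human allele, there is no wild-type group, and a hemibrain mixes all regions and cell types of that side of the brain.

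PI3P is a lipid that marks early endosomes and young autophagosomes. The VPS34 kinase complex makes most of it, proteins with FYVE or PX domains bind it, and PIKFYVE converts it to PI(3,5)P2 on later endosomes while myotubularins remove the phosphate. In neurons this lipid cycle serves receptor sorting, autophagy and lysosome supply, and loss of FIG4 or VAC14 causes neurodegeneration in mice.

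The FYVE domain is a zinc finger whose conserved basic stretch contacts PI3P. The coding stretches around it are shown because they are what ties Wdfy1 to the lipid and to its nearest relative. The longest annotated coding sequence of each member was translated and searched, on the coding strand, for the core FYVE signature (arginine, any residue, histidine, histidine, cysteine, then arginine or lysine). Wdfy1, Wdfy2, Wdfy3 and Pikfyve held 1 match each, and 30 of 21817 protein-coding genes (0.138%) held it. In the other 6 members these letters were not found in this coding sequence. The stretches run 5′ to 3′ on the coding strand, with introns left out, in the GENCODE mouse release 21 annotation of GRCm38, and capitals mark the codons of the signature.
Wdfy1: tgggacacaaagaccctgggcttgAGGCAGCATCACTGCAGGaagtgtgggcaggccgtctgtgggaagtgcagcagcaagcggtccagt
Wdfy2: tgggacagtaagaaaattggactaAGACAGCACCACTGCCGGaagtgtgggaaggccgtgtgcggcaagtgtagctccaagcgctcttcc
Wdfy3: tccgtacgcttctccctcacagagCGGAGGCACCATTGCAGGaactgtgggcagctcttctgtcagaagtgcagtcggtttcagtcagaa
Pikfyve: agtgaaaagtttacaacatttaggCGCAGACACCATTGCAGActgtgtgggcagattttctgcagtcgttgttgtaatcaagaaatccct

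The Wdfy1 stretch lies at chr1:79707523-79709122 on the minus strand and spans exons 9 and 10 of 12, and the Wdfy2 stretch at chr14:62951987-62953071 on the plus strand also spans exons 9 and 10 of 12. The signature occupies codons 310 to 315 in both, of 410 codons in Wdfy1 and 400 in Wdfy2. In Wdfy3 the signature stands near the end, at codons 3472 to 3477 of 3526 (chr5:101836260-101844084, minus strand, exons 64 and 65). Pikfyve carries it near the start, at codons 176 to 181 of 2097 (chr1:65196672-65196761, plus strand, exon 5). Over the 90 bases shown, Wdfy1 shared 73.3% of positions with Wdfy2, 56.7% with Wdfy3 and 43.3% with Pikfyve. Despite that likeness, only 17 of the 4502 distinct 50-base windows of the Wdfy1 transcript (0.38%) also occurred in a transcript of another gene. The share was 5.29% for Wdfy2, 3.97% for Wdfy3 and 17.25% for Pik3c2a, and no window was shared for the remaining 6. The reads were 50 bases long, so the Pik3c2a level in particular depends on how reads with several matches were counted, which is not given in the sources used here.

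Library totals ran from 48841442 to 52761314 counts in APOE4, from 49545646 to 59394503 in APOE2 and from 43818967 to 50382463 in APOE3, and mitochondrial transcripts took 3.21% to 4.73% of a library. Reads on the mouse Apoe entry averaged 44.9 ± 5.19 CPM in APOE4, 39.5 ± 2.48 CPM in APOE2 and 42.4 ± 3.13 CPM in APOE3 (SD, n = 6 each). CPM are counts scaled to library size, after TMM scaling. Reads of the human transcript are counted there only where they align to mouse sequence, so the entry does not identify the isoform. Markers of neurons, astrocytes, oligodendrocytes, microglia and endothelium were detected in every library. Pituitary hormone transcripts summed to 171 CPM in 1 APOE4 library, where the median APOE4 library had 9.12 CPM. Blood transcripts summed to 206 CPM in 1 APOE2 library, where the median APOE2 library had 87.9 CPM. The sample titles of APOE2 mice end in c or in no letter, and those of the other genotypes in d, e, f or g. The labels do not explain these letters, so anything that goes with them cannot be told apart from the APOE2 genotype.

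Wdfy1 (ENSMUSG00000073643.11, chr1:79702262-79776143, minus strand, GRCm38) encodes a WD-repeat and FYVE protein that binds PI3P on early endosomes and is known as an adaptor bringing TRIF to TLR3 and TLR4. It stood at 18.2, 20.2 and 22.3 CPM (lowest, median and highest) in APOE4, at 59.9, 63.3 and 69.1 CPM in APOE2 and at 60.3, 61.9 and 65.4 CPM in APOE3. All 6 APOE4 mice lay far below all mice of both other genotypes, and the APOE3 range lay inside the APOE2 range. Non-overlapping ranges of 6 against 6 mice were found for 1.48% of all 18891 genes tested between APOE4 and APOE3 and for 3.48% between APOE4 and APOE2. Since Wdfy1 was chosen for this difference, nothing is read from that share. Group means were 20.2 ± 1.53 CPM in APOE4, 63.9 ± 3.70 CPM in APOE2 and 62.3 ± 1.95 CPM in APOE3 (SD, n = 6 each).

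**Figure D1:**
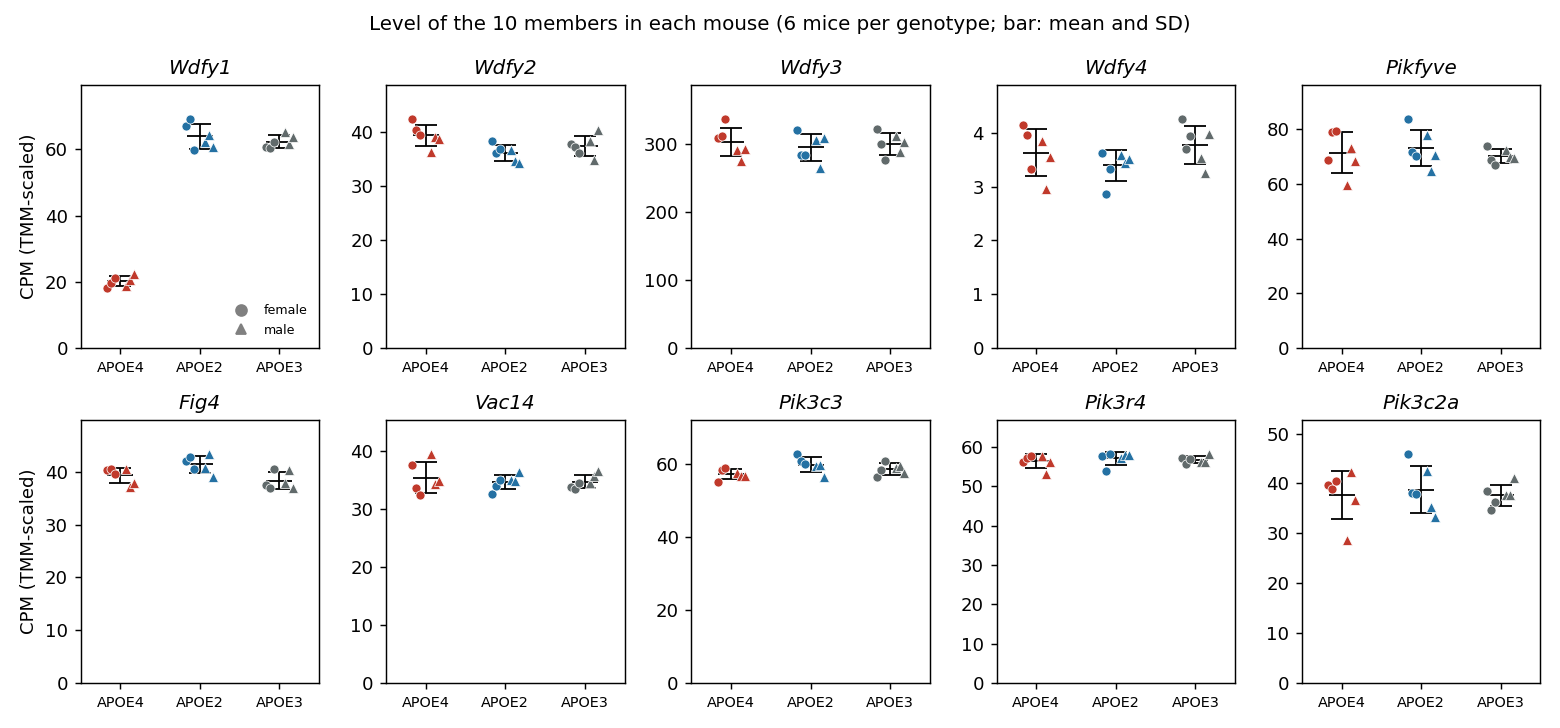
Level of each of the 10 genes in every mouse, in CPM after TMM scaling on axes that start at 0, with circles for females, triangles for males, and bars for the mean and SD of 6 mice. Wdfy1 lay between 18.2 and 22.3 CPM in APOE4 and between 59.9 and 69.1 CPM in all APOE2 and APOE3 mice, while the ranges of the other 9 genes overlapped between genotypes.

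The transcript remained well detected in APOE4, with 942 to 1093 reads per library, against 2917 to 3686 in APOE2 and 2789 to 3132 in APOE3. Each APOE4 mouse held between 29.2% and 35.7% of the APOE3 mean, with an average of 32.3% ± 2.46 (SD, n = 6). The fitted log2 ratio was -1.63 (SE 0.05) for APOE4 against APOE3 and -1.67 (SE 0.05) for APOE4 against APOE2. These are descriptions that share their APOE4 libraries. Ranked by the fitted log2 ratio among the 14820 tested genes averaging 1 CPM or more, Wdfy1 had the 3rd lowest value for APOE4 against APOE3, after Ighg2c and Gm15494. Against APOE2 it ranked 25 of 14830. In the authors' deposited table the log2 fold change of Wdfy1 was 1.64 for APOE3 over APOE4 and 1.67 for APOE2 over APOE4. Those ratios have APOE4 as the denominator, so they also place Wdfy1 lower in APOE4.

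APOE2 against APOE3 is the comparison that the choice of Wdfy1 did not use. There Wdfy1 had a log2 ratio of 0.04 (SE 0.05, edgeR adjusted p = 0.745), and the 95% interval of the ratio ran from 0.954 to 1.10. An interval that includes 1 does not show that the levels are equal. The authors' deposited table gave a log2 fold change of 0.03 for APOE2 over APOE3, with an adjusted p of 0.846.

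Both sexes showed the same separation. In females Wdfy1 averaged 19.7 ± 1.49 CPM in APOE4, 65.4 ± 4.86 CPM in APOE2 and 61.0 ± 1.01 CPM in APOE3 (SD, n = 3 each). In males the means were 20.6 ± 1.76 CPM in APOE4, 62.4 ± 1.91 CPM in APOE2 and 63.6 ± 1.92 CPM in APOE3 (SD, n = 3 each). The highest APOE4 female had 21.2 CPM and the lowest APOE3 female 60.3 CPM, and the highest APOE4 male had 22.3 CPM and the lowest APOE3 male 61.6 CPM. Over all genotypes, females against males gave a log2 ratio of -0.02 (SE 0.04, edgeR adjusted p = 0.941) for Wdfy1. In a hemibrain, fewer cells of a type and less RNA per cell cannot be told apart, for Wdfy1 and for every gene below.

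Markers of 10 cell types and tissues, 5 for each, were summed in the same libraries. Neurons reached 5870 to 6580 CPM in APOE4, 6170 to 6860 CPM in APOE2 and 6200 to 6550 CPM in APOE3. Microglia reached 236 to 281 CPM in APOE4, 245 to 277 CPM in APOE2 and 251 to 284 CPM in APOE3. Astrocytes reached 1080 to 1260 CPM in APOE4, 1150 to 1390 CPM in APOE2 and 1100 to 1240 CPM in APOE3. Oligodendrocytes reached 4620 to 5750 CPM in APOE4, 4850 to 6470 CPM in APOE2 and 4280 to 5250 CPM in APOE3. Between APOE4 and either other genotype the summed ranges overlapped in all 10 lists, which also held endothelium, choroid plexus, ependyma, pituitary, blood and dendritic cells. Of the 48 markers tested, 0 were called for APOE4 against APOE3 by edgeR, DESeq2 or limma voom, beside 0.773% of all genes, with 6 at an unadjusted p under 0.05. Oligodendrocytes held 3 of these, the most of any list, and all 5 oligodendrocyte markers were higher in APOE4 (median log2 ratio 0.16). For APOE4 against APOE2, 3 were called by edgeR, beside 6.53% of all genes, namely Gfap of astrocytes, Tmem119 of microglia and Ccdc153 of ependyma. In that comparison 12 had an unadjusted p under 0.05. Blood held 5 of these, the most of any list, and all 5 blood markers were lower in APOE4 (median log2 ratio -0.73). Which cells of the hemibrain carried Wdfy1 was not measured, and the part of cell makeup in its level was not tested.

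None of the other family members passed the test in any comparison. Wdfy2, which binds PI3P on endosomes and docks AKT there, stood at 36.2, 39.1 and 42.3 CPM in APOE4, at 34.2, 36.4 and 38.3 CPM in APOE2 and at 34.8, 37.5 and 40.3 CPM in APOE3. The 3 ranges overlapped, with APOE4 highest on average. The log2 ratio of Wdfy2 was 0.07 (SE 0.04, edgeR adjusted p = 0.730) for APOE4 against APOE3 and 0.12 (SE 0.04, edgeR adjusted p = 0.107, unadjusted p = 0.0110) for APOE4 against APOE2. In the authors' deposited table its adjusted p for APOE2 against APOE4 was 0.0892.

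Because Wdfy1 and Wdfy2 are the closest pair, their ratio in each mouse gives a value that does not depend on library size. Per kilobase of annotated exon, Wdfy1 over Wdfy2 was 0.728 ± 0.0704 in APOE4, 2.51 ± 0.148 in APOE2 and 2.36 ± 0.108 in APOE3 (SD, n = 6 each). The APOE4 mice ran from 0.610 to 0.816, the APOE2 mice from 2.31 to 2.71 and the APOE3 mice from 2.24 to 2.51. Wdfy2 was thus the more abundant of the pair in every APOE4 mouse and Wdfy1 in every APOE2 and APOE3 mouse. This ratio carries the choice of Wdfy1 and was not tested.

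Wdfy3, the large autophagy adaptor ALFY that helps clear protein aggregates, was the most abundant member. It stood at 275, 301 and 336 CPM in APOE4, at 265, 295 and 320 CPM in APOE2 and at 276, 301 and 321 CPM in APOE3, with overlapping ranges. Its log2 ratio was 0.01 (SE 0.05, edgeR adjusted p = 0.985) for APOE4 against APOE3, with an interval of the ratio from 0.936 to 1.09.

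Wdfy4, a relative needed for antigen cross-presentation by dendritic cells in mice, was the scarcest member, with 147 to 219 reads per library. It stood at 2.96, 3.69 and 4.14 CPM in APOE4, at 2.86, 3.47 and 3.63 CPM in APOE2 and at 3.26, 3.81 and 4.25 CPM in APOE3. The ranges overlapped, and the largest of its log2 ratios in size was -0.15 (SE 0.09, edgeR adjusted p = 0.431) for APOE2 against APOE3. Of 5 dendritic cell markers, Xcr1 and Clec9a were near 0, with at most 3 reads of Xcr1 and 8 reads of Clec9a in any library. The others were Batf3 at 0.978 CPM in APOE4, 0.946 CPM in APOE2 and 1.11 CPM in APOE3, Flt3 at 11.7 CPM in APOE4, 12.3 CPM in APOE2 and 12.3 CPM in APOE3, and Zbtb46 at 14.2 CPM in APOE4, 13.9 CPM in APOE2 and 14.3 CPM in APOE3. The microglia marker Cx3cr1 averaged 54.7 ± 6.20 CPM in APOE4, 53.3 ± 2.88 CPM in APOE2 and 55.3 ± 3.43 CPM in APOE3 (SD, n = 6 each).

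The VPS34 kinase and its regulatory subunit were the steadiest members. Pik3c3, which encodes the kinase VPS34, stood at 54.9, 57.0 and 58.9 CPM in APOE4, at 56.4, 59.7 and 62.6 CPM in APOE2 and at 56.4, 58.6 and 60.8 CPM in APOE3. Pik3r4, which encodes its membrane anchor VPS15, stood at 53.1, 56.8 and 57.8 CPM in APOE4, at 53.8, 57.7 and 58.2 CPM in APOE2 and at 55.6, 56.6 and 58.1 CPM in APOE3. Both overlapped across all genotypes. The median coefficient of variation over the 3 genotypes was 2.68% for Pik3c3 and 2.90% for Pik3r4, the lowest of the 10. For APOE4 against APOE3 the log2 ratio was -0.04 (SE 0.04, edgeR adjusted p = 0.881) for Pik3c3 and -0.01 (SE 0.04, edgeR adjusted p = 0.987) for Pik3r4. The interval of the ratio was 0.925 to 1.03 for Pik3c3 and 0.944 to 1.05 for Pik3r4.

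Pik3c2a, a class II kinase that makes 3-phosphoinositides at clathrin pits and endosomes, was the most variable, with a median coefficient of variation of 12.0%. It stood at 28.7, 39.2 and 42.3 CPM in APOE4, at 33.2, 37.9 and 45.9 CPM in APOE2 and at 34.6, 37.7 and 41.0 CPM in APOE3. One APOE4 male was the lowest of all 18 mice and the ranges overlapped. Its log2 ratio for APOE4 against APOE3 was 0.00 (SE 0.08, edgeR adjusted p = 0.997), with a ratio interval of 0.889 to 1.13.

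PIKFYVE works in a complex with the scaffold VAC14 and the phosphatase FIG4, which reverses the PIKFYVE reaction and also stabilises the complex. Pikfyve ran from 59.6 to 79.4 CPM in APOE4 (mean 71.4), from 64.6 to 83.7 CPM in APOE2 (mean 73.1) and from 67.1 to 73.9 CPM in APOE3 (mean 70.3). Vac14 stood at 32.3, 34.5 and 39.4 CPM in APOE4, at 32.5, 34.8 and 36.3 CPM in APOE2 and at 33.3, 34.4 and 36.4 CPM in APOE3. For both genes the APOE3 mice lay inside the APOE4 range. The log2 ratio for APOE4 against APOE3 was 0.02 (SE 0.06, edgeR adjusted p = 0.980) for Pikfyve and 0.03 (SE 0.04, edgeR adjusted p = 0.946) for Vac14.

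Fig4 stood at 37.1, 40.0 and 40.6 CPM in APOE4, at 39.1, 41.5 and 43.4 CPM in APOE2 and at 37.0, 37.7 and 40.5 CPM in APOE3. APOE2 was highest on average, and its range still overlapped both others. The log2 ratio of Fig4 for APOE2 against APOE3 was 0.11 (SE 0.04), with an unadjusted p of 0.0109 and an edgeR adjusted p = 0.145. The authors' deposited table gave an adjusted p of 0.144 for the same pair.

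**Figure D2:**
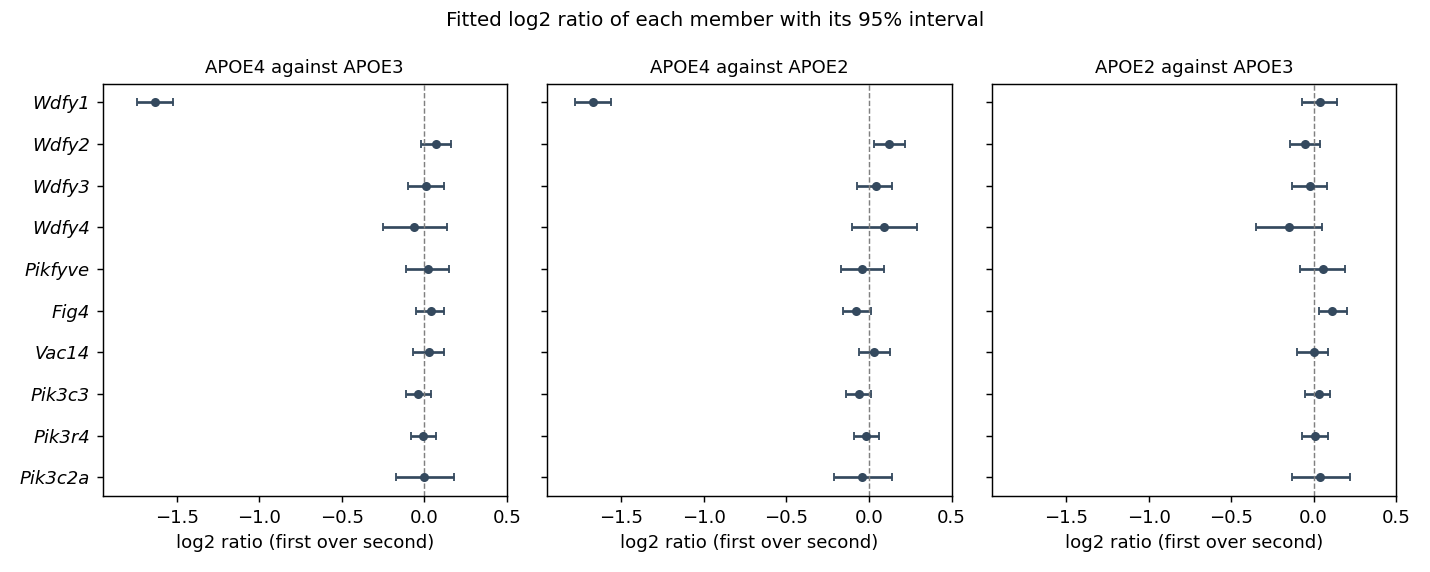
Fitted log2 ratio of each of the 10 genes for APOE4 against APOE3, APOE4 against APOE2 and APOE2 against APOE3, with 95% intervals from the edgeR fit of all 18 libraries. Wdfy1 sits at -1.63 and -1.67 for the comparisons with APOE4 and at 0.04 for APOE2 against APOE3, and the other 9 genes lie between -0.15 and 0.12 throughout.

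Of the 9 members other than Wdfy1, 0 were called in any genotype comparison at an edgeR adjusted p under 0.05. Of all tested genes, 0.773% were called for APOE4 against APOE3, 6.53% for APOE4 against APOE2 and 3.91% for APOE2 against APOE3, so a count of 0 among 9 is near the background. DESeq2 and limma voom also called 0 of the 9. Unadjusted p values under 0.05 were those of Wdfy2 for APOE4 against APOE2 and of Fig4 for APOE2 against APOE3. None of the 9 had ranges that did not overlap, where 1.48%, 3.48% and 3.23% of all genes had such ranges in the same order of comparisons.

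The median log2 ratio of the 9 was 0.012 for APOE4 against APOE3, where that of all tested genes was 0.004. It was -0.018 for APOE4 against APOE2 (all genes -0.002) and 0.010 for APOE2 against APOE3 (all genes 0.003). Each 95% interval covers 1 gene in 1 comparison, and no joint interval was made for the 9. For APOE4 against APOE3 all 9 intervals of the ratio lay between 0.839 and 1.13, for APOE4 against APOE2 between 0.864 and 1.22 and for APOE2 against APOE3 between 0.786 and 1.16.

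No member passed the test for sex. Of the 10, 0 were called for sex, where 0.132% of all genes were, and the lowest unadjusted p was 0.0748 for Vac14 (34.0 CPM in females and 35.7 CPM in males). A sex by genotype difference was called for 0 of the 10 and for 0% of all genes by edgeR, with 988 genes at an unadjusted p under 0.05, 25 genes called by DESeq2 and 0 by limma voom. Among the members the lowest unadjusted interaction p was 0.221, for Wdfy3.

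Set against each other per kilobase of annotated exon, the members kept the same order in APOE2 and APOE3, and Wdfy1 changed place in APOE4. In APOE3 the order was Wdfy3 at 19.5 CPM per kilobase, Pik3c3 at 13.1, Fig4 at 11.7, Wdfy1 at 9.60, Pik3r4 at 5.87, Vac14 at 4.98, Wdfy2 at 4.07, Pikfyve at 3.66, Pik3c2a at 3.38 and Wdfy4 at 0.358. Neighbours in that order had ranges over mice that did not overlap, except Wdfy2 with Pikfyve and Pikfyve with Pik3c2a. In APOE4 Wdfy1 stood 9th at 3.11 CPM per kilobase, overlapping Pik3c2a at 3.39 and apart from Wdfy4 at 0.344. In APOE2 it stood 4th at 9.85 CPM per kilobase, below Fig4 at 12.6 and above Pik3r4 at 5.91, apart from both. The order of the genes, and which neighbours overlap, depend on the length used, and no other length was tried. The union of annotated exons held 19211 bases for Pikfyve and 3282 for Fig4. The transcripts with the longest coding sequence held 6641 bases for Pikfyve and 3282 for Fig4. Comparing 1 gene between genotypes does not depend on the length.

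**Figure D3:**
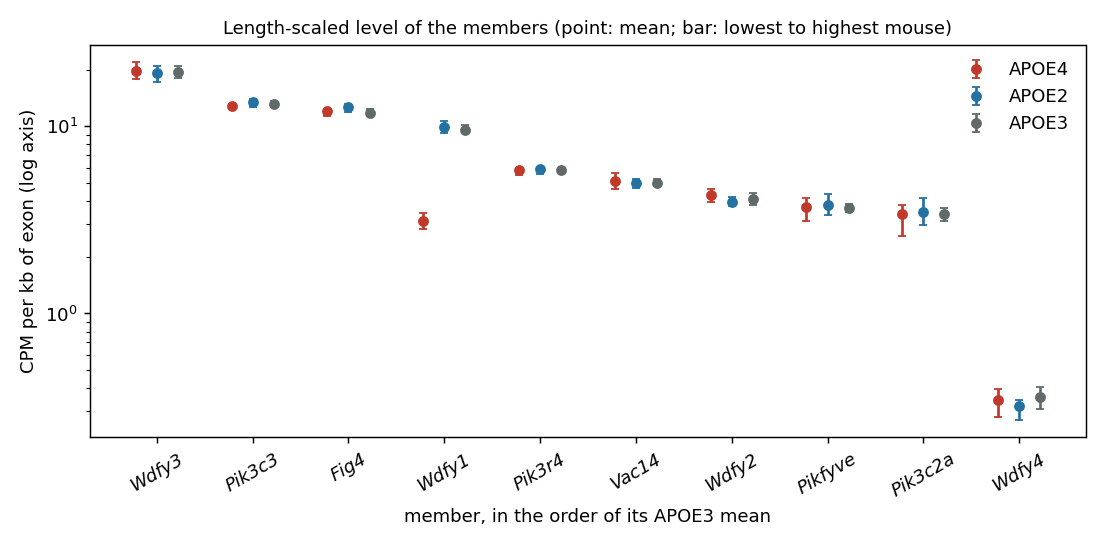
Length-scaled level of the 10 genes in CPM per kilobase of annotated exon on a log axis, with the mean of 6 mice as a point and the lowest to highest mouse as a bar, in the order of the APOE3 means. Wdfy1 is at 3.11 in APOE4, 9.85 in APOE2 and 9.60 in APOE3, and the points of each other gene lie together.

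The wider PI3P pathway was listed as 96 genes in 7 groups, of which 93 passed the filter. For APOE4 against APOE3, 0 of the 93 were called by edgeR beside 0.773% of all genes, with 5 at an unadjusted p under 0.05 and 1 gene, Wdr45, called by DESeq2. For APOE4 against APOE2, 5 were higher and 1 was lower, beside 6.53% of all genes. For APOE2 against APOE3, 1 was higher and 2 were lower, beside 3.91% of all genes. Both shares, 6 of 93 and 3 of 93, are near the background. The median log2 ratio of the 93 was 0.00, 0.01 and -0.01 in the 3 comparisons in that order. The count for APOE4 against APOE2 moved with single libraries. It was 11 without APOE4 replicate 5, 3 without APOE2 replicate 2, 4 or 5 or without APOE4 replicate 3, and 2 without APOE4 replicate 2 or 6. For APOE2 against APOE3 it was 5 without APOE2 replicate 6.

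Of the 7 complex partners of VPS34, 0 were called by edgeR in any comparison, with 0, 2 and 0 at an unadjusted p under 0.05 for APOE4 against APOE3, APOE4 against APOE2 and APOE2 against APOE3. Becn1, the scaffold of the autophagy and endosome forms of the complex, stood at 105 to 112 CPM in APOE4, 108 to 118 CPM in APOE2 and 112 to 115 CPM in APOE3. Its log2 ratio was -0.06 (SE 0.03, edgeR adjusted p = 0.640) for APOE4 against APOE3, and its ranges in that pair did not overlap, as for 1.48% of all genes. Atg14, which directs the complex to autophagosomes, had a log2 ratio of 0.04 (SE 0.04, edgeR adjusted p = 0.872) for the same pair, and Uvrag, which directs it to endosomes, of 0.05 (SE 0.05, edgeR adjusted p = 0.864). Of the 14 myotubularins, the phosphatases and pseudophosphatases that turn PI3P over, 0 were called by edgeR in any comparison, and their log2 ratios ran from -0.10 to 0.05 for APOE4 against APOE3. Their numbers at an unadjusted p under 0.05 were 0 for APOE4 against APOE3, 3 for APOE4 against APOE2 and 2 for APOE2 against APOE3. DESeq2 called 0 genes of either group. Single libraries brought 3 calls. Without APOE4 replicate 5, Rubcn, an inhibitor of the VPS34 complex, and the pseudophosphatase gene Sbf1 were called for APOE4 against APOE2 (edgeR adjusted p = 0.0339 for Rubcn and 0.00533 for Sbf1). Without APOE3 replicate 6, Mtmr11 was called for APOE2 against APOE3 (edgeR adjusted p = 0.0150).

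Among the 4 other enzymes that make PI3P, Inpp4b was called. This phosphatase takes the 4-phosphate off PI(3,4)P2 and leaves PI3P. Inpp4b stood at 15.2, 18.7 and 20.3 CPM in APOE2 and at 14.3, 14.5 and 16.1 CPM in APOE3, with overlapping ranges. The APOE4 mice stood at 14.8, 15.9 and 19.8 CPM, overlapping both. The log2 ratio was 0.28 (SE 0.08, edgeR adjusted p = 0.0403) for APOE2 against APOE3. It was 0.15 (SE 0.08, edgeR adjusted p = 0.625) for APOE4 against APOE3 and -0.13 (SE 0.08, edgeR adjusted p = 0.353) for APOE4 against APOE2. The call was lost in 10 of 26 alternative fits, among them without APOE2 replicate 1, 2, 4 or 5 and without APOE3 replicate 2, 3, 5 or 6, where the adjusted p reached 0.117.

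Proteins that bind PI3P held the remaining calls, all in comparisons with APOE2. Of 24 tested genes for other FYVE proteins, 4 were higher and 1 was lower for APOE4 against APOE2, beside 6.53% of all genes in either direction. Eea1, the early endosome tether, stood at 69.0 ± 8.44 CPM in APOE4, 74.2 ± 7.24 CPM in APOE2 and 70.1 ± 2.20 CPM in APOE3, and Hgs, the ESCRT entry factor, at 87.8 ± 8.06 CPM in APOE4, 86.4 ± 3.68 CPM in APOE2 and 87.1 ± 2.01 CPM in APOE3 (SD, n = 6 each). Neither was called in any comparison, and both were named for their role.

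Fgd2, an exchange factor for CDC42 that carries a FYVE domain and is known from antigen-presenting cells, was lower in APOE2. It stood at 6.03, 6.67 and 8.78 CPM in APOE4, at 4.91, 5.56 and 6.06 CPM in APOE2 and at 6.57, 6.95 and 7.69 CPM in APOE3. All 6 APOE2 mice lay below all 6 APOE3 mice, as for 3.23% of all genes in either direction, and the APOE4 range touched the APOE2 range. The log2 ratio was 0.36 (SE 0.09, edgeR adjusted p = 0.0126) for APOE4 against APOE2 and -0.37 (SE 0.09, edgeR adjusted p = 0.0161) for APOE2 against APOE3, which share the APOE2 libraries. Both calls held at a threshold of 0.05 in 26 alternative fits, with adjusted p values up to 0.0445 for APOE4 against APOE2 and 0.0492 for APOE2 against APOE3, and both were lost at a threshold of 0.01. Among microglia markers, Tmem119 averaged 23.7 ± 2.07 CPM in APOE4 and 20.7 ± 1.51 CPM in APOE2 (SD, n = 6 each; log2 ratio 0.20, SE 0.06, edgeR adjusted p = 0.0368), and it was the only 1 of 5 called. The Tmem119 call was lost in 10 of 26 alternative fits, among them without APOE4 replicate 1, 2, 3, 4 or 6 and without APOE2 replicate 1, 3, 4 or 5 (edgeR adjusted p up to 0.0949). Csf1r averaged 107 ± 5.27 CPM in APOE4 and 104 ± 5.31 CPM in APOE2. P2ry12 and C1qa were lower on average in APOE4 than in APOE2. P2ry12 averaged 33.6 ± 6.67 CPM in APOE4 and 37.2 ± 4.27 CPM in APOE2, and C1qa 40.2 ± 2.79 CPM in APOE4 and 42.7 ± 4.39 CPM in APOE2. In all, 3 of the 5 had a positive log2 ratio for APOE4 against APOE2. Gfap, an astrocyte marker, averaged 197 CPM in APOE4, 256 CPM in APOE2 and 200 CPM in APOE3 (log2 ratio -0.38 for APOE4 against APOE2, SE 0.08, edgeR adjusted p = 0.00381), and Ccdc153, an ependymal marker, averaged 3.92 CPM in APOE4, 1.94 CPM in APOE2 and 3.90 CPM in APOE3 (log2 ratio 1.01 for APOE4 against APOE2, SE 0.12, edgeR adjusted p = 1.56e-06). Gfap was the only 1 of 5 astrocyte markers called for APOE4 against APOE2 and the only 1 at an edgeR unadjusted p under 0.05. The median log2 ratio of those 5 was -0.04. Ccdc153 was the only 1 of 5 ependymal markers called, and the summed ependymal markers reached 23.3 to 29.9 CPM in APOE4 and 22.3 to 32.0 CPM in APOE2. Within 2 Mb of Ccdc153 on chromosome 9, 39.1% of 69 tested genes were called for APOE4 against APOE2, beside 6.53% overall. The part of these markers in the Fgd2 result and in the other calls against APOE2 was not tested.

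Snx22, a sorting nexin whose PX domain binds PI3P, was also lowest in APOE2. It averaged 9.65 ± 0.835 CPM in APOE4, 7.24 ± 0.355 CPM in APOE2 and 8.88 ± 0.699 CPM in APOE3 (SD, n = 6 each), and the highest APOE2 mouse had 7.60 CPM. Every APOE2 mouse lay below every mouse of the other genotypes, a separation in either direction found for 3.48% of all genes between APOE4 and APOE2 and for 3.23% between APOE2 and APOE3. The log2 ratio of Snx22 was 0.41 (SE 0.06, edgeR adjusted p = 2.41e-05) for APOE4 against APOE2 and -0.29 (SE 0.06, edgeR adjusted p = 0.00248) for APOE2 against APOE3. It was the only 1 of 37 tested PX domain genes that edgeR called in either, beside 6.53% and 3.91% of all genes, and both calls held in 26 alternative fits and at a threshold of 0.01. Other PX domain genes were called in some of those fits. For APOE4 against APOE2, DESeq2 also called Pxk (adjusted p = 0.0193), Snx16 (adjusted p = 0.0464) and Snx30 (adjusted p = 0.0275). Of the 26 fits, Pxk was called in 7, Snx30 in 7, Snx16 in 3 and Snx2 in 1. Snx16 and Snx11 were each called in 1 fit for APOE2 against APOE3.

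Fgd3, another CDC42 exchange factor, was higher in APOE4 than in APOE2 by 0.21 on the log2 scale (SE 0.06, edgeR adjusted p = 0.0323), at 12.9 ± 0.713 CPM in APOE4 and 11.2 ± 0.648 CPM in APOE2 (SD, n = 6 each). Zfyve28, which encodes the endosomal protein LST2, averaged 58.1 ± 3.67 CPM in APOE4 and 51.5 ± 4.43 CPM in APOE2 (log2 ratio 0.17, edgeR adjusted p = 0.0425), and Zfyve1, which encodes DFCP1 of the omegasome, 57.7 ± 2.15 CPM in APOE4 and 53.1 ± 1.41 CPM in APOE2 (log2 ratio 0.12, edgeR adjusted p = 0.0476). Zfyve19, the abscission checkpoint protein ANCHR, was the lower one, at 15.4, 16.3 and 17.9 CPM in APOE4 and 17.1, 18.9 and 20.4 CPM in APOE2 (log2 ratio -0.20, edgeR adjusted p = 0.0272). In APOE3 the means were 11.7 ± 0.866 CPM for Fgd3, 57.9 ± 3.52 CPM for Zfyve28, 56.7 ± 1.68 CPM for Zfyve1 and 17.4 ± 0.848 CPM for Zfyve19. None of the 4 was called by the main fit in either comparison with APOE3. For APOE2 against APOE3, Zfyve28 had a log2 ratio of -0.17 (SE 0.05, edgeR adjusted p = 0.0712) and was called in 6 of 26 alternative fits. The 4 calls for APOE4 against APOE2 were not stable. Of 26 alternative fits, 9 lost Fgd3, 15 lost Zfyve28, 20 lost Zfyve1 and 6 lost Zfyve19. Single libraries accounted for most losses. Fgd3 was lost without APOE4 replicate 2, 4 or 6 and without APOE2 replicate 1, 2, 4 or 6 (edgeR adjusted p up to 0.105), and Zfyve19 without APOE4 replicate 2, 3 or 6 and without APOE2 replicate 3 or 5 (edgeR adjusted p up to 0.0765). Zfyve28 was lost without any of 13 libraries (edgeR adjusted p up to 0.110) and Zfyve1 without any of 17 (edgeR adjusted p up to 0.126).

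**Figure D4:**
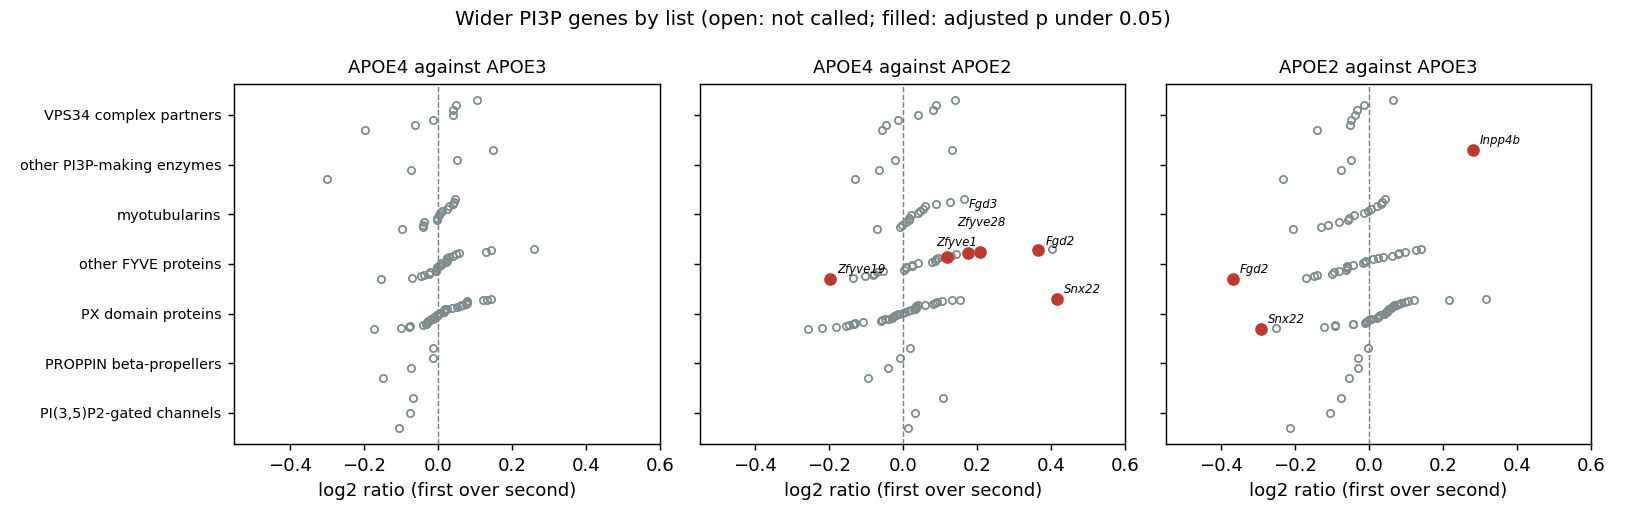
Fitted log2 ratio of the 93 tested genes of the wider PI3P pathway, 1 point per gene, by group and comparison, with filled and named points at an edgeR adjusted p under 0.05. No point is filled for APOE4 against APOE3, 6 are filled for APOE4 against APOE2 and 3 for APOE2 against APOE3, with Fgd2 and Snx22 in both of these.

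The genes around the called ones of the wider PI3P pathway were counted as well. Zfyve19 (chr2:119208617-119217049) had 73 tested genes within 2 Mb of its start, and 39.7% of them were called for APOE4 against APOE2. Around Snx22 (chr9:66065176-66069719) 9.43% of 53 genes were called in the same comparison and 9.43% for APOE2 against APOE3. Around Fgd2 (chr17:29360914-29379661) 3.39% and 1.69% of 59 were called in those comparisons. Around Inpp4b (chr8:81342556-82127914) 0% of 17 were called for APOE2 against APOE3. For APOE4 against APOE2, 3.57% of 28 were called around Fgd3, 1.69% of 59 around Zfyve28 and 3.45% of 58 around Zfyve1. Over all genes the shares were 6.53% for APOE4 against APOE2 and 3.91% for APOE2 against APOE3. The direction of the called neighbours of Zfyve19 is not given here, and their part in its result was not tested.

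By edgeR the last groups of the pathway held 0 calls. The 4 PROPPIN beta-propellers, which bind PI3P on autophagosomes, had log2 ratios from -0.15 to -0.01 for APOE4 against APOE3, with 2 at an unadjusted p under 0.05. Wdr45, which encodes WIPI4 and is mutated in a human neurodegenerative disease with iron accumulation, had a log2 ratio of -0.15 (edgeR adjusted p = 0.129) and was called by DESeq2 (adjusted p = 0.0310). Wipi2 had a log2 ratio of -0.07 (SE 0.03, edgeR adjusted p = 0.552). The 3 tested channels of 5 that open on PI(3,5)P2 had log2 ratios from -0.10 to -0.07 for APOE4 against APOE3. Mcoln1, the lysosomal calcium channel TRPML1, averaged 75.1 CPM in APOE4 and 79.1 CPM in APOE3 (log2 ratio -0.07, SE 0.05, edgeR adjusted p = 0.745).

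Since WDFY1 is known to act with TRIF in TLR3 and TLR4 signalling, that route was listed as 12 genes, of which 11 were tested. Of the 11, 0 were called by edgeR in any comparison, beside 0.773% of all genes for APOE4 against APOE3, 6.53% for APOE4 against APOE2 and 3.91% for APOE2 against APOE3, with 0 at an unadjusted p under 0.05 for APOE4 against APOE3 and 2 in each of the other comparisons. Tlr3, the sensor of double-stranded RNA, stood at 12.3, 12.9 and 17.3 CPM in APOE4, at 13.2, 14.3 and 15.5 CPM in APOE2 and at 13.0, 13.2 and 15.7 CPM in APOE3. Ticam1, which encodes TRIF, averaged 5.82 CPM in APOE4, 5.49 CPM in APOE2 and 5.69 CPM in APOE3. For APOE4 against APOE3 the log2 ratio was 0.03 (SE 0.08, edgeR adjusted p = 0.968) for Tlr3 and 0.03 (SE 0.09, edgeR adjusted p = 0.969) for Ticam1. The same route held the 2 values lowest in p for APOE4 against APOE2, Irf7 at 0.63 (SE 0.20, edgeR adjusted p = 0.0704) and Tlr4 at -0.34 (SE 0.13, edgeR adjusted p = 0.125) on the log2 scale. For APOE4 against APOE2 Irf7, an interferon-induced transcription factor, was called in 4 of 26 alternative fits, DESeq2 (adjusted p = 0.0237), limma voom, and without APOE2 replicate 6 (edgeR adjusted p = 2.76e-04) or APOE4 replicate 5. It was called in 1 fit for APOE2 against APOE3, without APOE2 replicate 6 (edgeR adjusted p = 0.00209).

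The other 6 tested members of the BEACH family, to which Wdfy3 and Wdfy4 belong, held 0 calls by edgeR in any comparison, with 0, 1 and 2 at an unadjusted p under 0.05 for APOE4 against APOE3, APOE4 against APOE2 and APOE2 against APOE3. In the same order, 0.773%, 6.53% and 3.91% of all genes were called. DESeq2 called Nbeal2 for APOE4 against APOE2, among 1539 genes in all, and for APOE2 against APOE3, among 940 genes in all. Nbea, the neuronal member neurobeachin, averaged 371 CPM in APOE4 and 376 CPM in APOE3 (log2 ratio -0.02, SE 0.05, edgeR adjusted p = 0.976). Of 9 class I PI 3-kinase genes, which make another 3-phosphoinositide at the plasma membrane, 1 was called by edgeR. The call was for APOE2 against APOE3, beside 3.91% of all genes. DESeq2 also called Pik3r2 for APOE2 against APOE3 and Pik3cd and Pik3r3 for APOE4 against APOE2. Pik3cd, the leukocyte catalytic subunit, stood at 25.8, 29.1 and 30.9 CPM in APOE2 and at 31.1, 33.8 and 35.6 CPM in APOE3, without overlap, as for 3.23% of all genes (log2 ratio -0.25, SE 0.05, edgeR adjusted p = 0.00714). In APOE4 it stood at 29.1, 32.9 and 34.4 CPM. Its log2 ratio was -0.07 (SE 0.05, edgeR adjusted p = 0.799) for APOE4 against APOE3 and 0.17 (SE 0.05, edgeR adjusted p = 0.0574) for APOE4 against APOE2. Within 2 Mb of Pik3cd (chr4:149649168-149702571), 31.7% of 60 tested genes were called for APOE2 against APOE3, beside 3.91% overall.

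No gene next to Wdfy1 on chromosome 1 had a ratio as low as that of Wdfy1 in APOE4. Of the 17 tested genes that start within 2 Mb of its start, 1 was called for APOE4 against APOE3, beside 0.773% of all genes, 1 for APOE4 against APOE2, beside 6.53%, and 1 for APOE2 against APOE3, beside 3.91%, and it was Sgpp2 each time. Within 1 Mb, 0 of 8 were called in any comparison, and within 5 Mb, 1 of 67. The log2 ratios of the 17 for APOE4 against APOE3 ran from -0.20 to 0.28, with a median of 0.04. At an unadjusted p under 0.05 (edgeR) were 3 of the 17 for APOE4 against APOE3, 3 for APOE4 against APOE2 and 5 for APOE2 against APOE3. For APOE4 against APOE3 these held Utp14b at 0.28 (SE 0.10, edgeR adjusted p = 0.343) and Dock10 at 0.13 (SE 0.04, edgeR adjusted p = 0.297), both higher in APOE4. Mrpl44, a mitochondrial ribosome protein gene whose first bases overlap those of Wdfy1 on the opposite strand (chr1:79776018-79781445, plus strand), stood at 18.1, 18.9 and 20.2 CPM in APOE4, at 18.3, 19.5 and 21.6 CPM in APOE2 and at 17.7, 18.7 and 19.1 CPM in APOE3. Its log2 ratio for APOE4 against APOE3 was 0.04 (SE 0.05, edgeR adjusted p = 0.913). The library kit marks strand, and the strand setting of the counting is not given in the sources used here. Beyond Mrpl44 on the same side, Serpine2, a secreted protease inhibitor, had a log2 ratio of 0.03 (SE 0.05, edgeR adjusted p = 0.945). On the other side of Wdfy1, Ap1s3, an adaptor subunit of vesicle coats, had a log2 ratio of 0.15 (SE 0.13, edgeR adjusted p = 0.841).

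**Figure D5:**
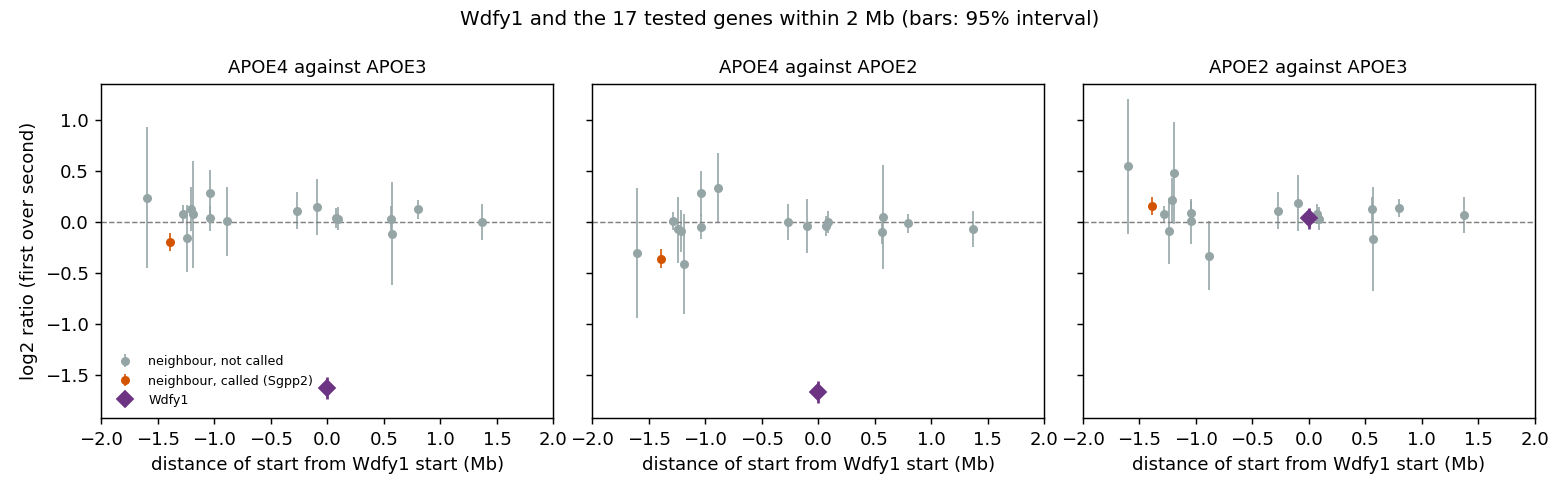
Fitted log2 ratio with its 95% interval for Wdfy1 and the 17 tested genes within 2 Mb, against the distance of their start from that of Wdfy1 in Mb, for the 3 comparisons. Wdfy1 lies at -1.63 and -1.67 in the comparisons with APOE4, the called neighbour Sgpp2 lies 1.39 Mb to the left at -0.20 and -0.36, and every other neighbour interval in the first panel reaches no lower than -0.62.

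Sgpp2, sphingosine-1-phosphate phosphatase 2 of sphingolipid breakdown (chr1:78310345-78420289, plus strand), stood at 31.3, 32.6 and 35.2 CPM in APOE4, at 39.8, 41.4 and 46.1 CPM in APOE2 and at 34.9, 37.3 and 40.5 CPM in APOE3. APOE4 was lowest and APOE2 highest, and only the APOE4 and APOE2 ranges did not overlap, as for 3.48% of all genes. The log2 ratio was -0.20 (SE 0.04, edgeR adjusted p = 0.0171) for APOE4 against APOE3, -0.36 (SE 0.04, edgeR adjusted p = 1.44e-06) for APOE4 against APOE2 and 0.16 (SE 0.04, edgeR adjusted p = 0.0227) for APOE2 against APOE3. Farsb, which overlaps the end of Sgpp2 on the opposite strand, averaged 62.5 CPM in APOE4, 62.2 CPM in APOE2 and 59.0 CPM in APOE3 and was not called. The APOE4 against APOE3 call of Sgpp2 was lost without APOE3 replicate 4 (adjusted p = 0.0561, edgeR) and without APOE4 replicate 1 (adjusted p = 0.0539, edgeR), and the APOE2 against APOE3 call without APOE2 replicate 1 (adjusted p = 0.0642, edgeR) or 2 (adjusted p = 0.0639, edgeR) and without APOE3 replicate 3 (adjusted p = 0.0763, edgeR) or 5 (adjusted p = 0.0779, edgeR). The authors' deposited table gave Sgpp2 adjusted p values of 3.35e-04 for APOE3 against APOE4, 1.16e-15 for APOE2 against APOE4 and 0.00688 for APOE2 against APOE3.

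The genes whose profile over the 18 mice was most like that of Wdfy1 were found by the root mean square difference of log2 CPM, each gene centred on its own mean, among 14826 genes averaging 1 CPM or more. They were Dmkn at 0.343, Ninj2 at 0.348, Ighm at 0.428, CT030173.1 at 0.436 and Rdh13 at 0.457, where the spread of Wdfy1 itself about its mean was 0.780 and Sgpp2 ranked 68. All 5 were lower in every APOE4 mouse than in every other mouse, a pattern they were picked for. Ninj2, an adhesion protein of nerve tissue on chromosome 6, averaged 0.924 ± 0.182 CPM in APOE4, 1.83 ± 0.136 CPM in APOE2 and 2.20 ± 0.272 CPM in APOE3 (SD, n = 6 each). Rdh13, a retinol dehydrogenase of mitochondria on chromosome 7, averaged 26.0 ± 1.55 CPM in APOE4, 43.6 ± 4.76 CPM in APOE2 and 44.1 ± 3.42 CPM in APOE3 (SD, n = 6 each). Dmkn, also on chromosome 7, averaged 1.22 ± 0.185 CPM in APOE4, 2.48 ± 0.192 CPM in APOE2 and 2.77 ± 0.555 CPM in APOE3 (SD, n = 6 each). Apoe lies on chromosome 7 as well, and the part of position in the Rdh13 and Dmkn profiles was not tested. Ighm, the IgM heavy chain constant region, averaged 17.5 ± 0.956 CPM in APOE4, 31.9 ± 6.08 CPM in APOE2 and 30.9 ± 2.56 CPM in APOE3 (SD, n = 6 each). Their fitted ratios for APOE4 against APOE3 ran from 0.419 for Ninj2 to 0.595 for CT030173.1, beside 0.323 for Wdfy1. With genes down to 0.1 CPM admitted, 2 of the 5 were kept.

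Around the other 9 members, windows of 2 Mb held from 0 to 6 called genes, beside 0.773% of all genes called for APOE4 against APOE3, 6.53% for APOE4 against APOE2 and 3.91% for APOE2 against APOE3. The most were around Pik3r4 (chr9:105642978-105687657), where 6 of 62 tested genes were called for APOE4 against APOE2 and 6 for APOE2 against APOE3, with 0 for APOE4 against APOE3. Around Vac14 (chr8:110618585-110720398) 3 of 51 were called for APOE4 against APOE2 and 1 for APOE4 against APOE3. Around Fig4, Pik3c3 and Pik3c2a 0 were called in any comparison.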

How the data were processed

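Raw counts of reads per gene symbol for 18 hemibrain libraries are as the authors deposited them. The submitters' processing notes name STAR 2.7.0, featureCounts, DESeq2 and the GRCm38/mm10 build. How strand was handled in counting is not given in the sources used here. A normalized signal that the authors deposited (from its values, counts over 1 size factor per library) entered no test. Their deposited DESeq2 tables hold, per the file headers, a log2 fold change with its standard error, a Wald score, and p-values for each genotype pair.

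Of 52459 symbols, 26 that had become dates (0.304% to 0.322% of counts) were left out. Positions come from GENCODE mouse release 21, where 47982 symbols (91.5%) matched 1 gene, and lengths are the union of annotated exons. Mice were grouped by the labels' genotype. A replicate number, given in accession order, is only a name. Between pairs of replicates the chi-square per degree of freedom was at least 5.77, so no library looked like a copy of another.

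Counts were tested with edgeR 4.0.16 (R 4.3.3) by quasi-likelihood, with TMM scaling, filterByExpr and 1 fit of all libraries by genotype and sex. It covered 18891 genes, and a call is an adjusted p (Benjamini-Hochberg) under 0.05. Intervals use 14 degrees of freedom, and some include 1 where the edgeR unadjusted p is under 0.05. Alternatives were other scalings and filters, DESeq2 1.42.0, limma 3.58.1 voom, no sex term, the compared libraries alone, titles ending in e or f, a threshold of 0.01, and each library left out. The members and lists were chosen with earlier results of these data known. Named are the members, up to 4 called genes per list by smallest p, and the 5 profiles most like Wdfy1. Any other gene, also within 2 Mb of Wdfy1, was chosen for its role, its position or after its values were seen.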

Additional observations from a re-analysis of the deposited data

Results flagged for a closer look

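In each genotype, the members and the tested genes within 2 Mb of Wdfy1 were examined for a mouse far from the other 5. Of 81 groups, from 27 genes, 4 held such a mouse, and chance gives about 1 in 20. Pik3r4, the VPS15 subunit, was low in APOE4 replicate 5 at 53.1 CPM, where the nearest APOE4 mouse had 56.2 CPM. Pik3r4 was also low in APOE2 replicate 2 at 53.8 CPM, where the nearest APOE2 mouse had 57.1 CPM. Pax3, a developmental transcription factor that is scarce in adult brain, was high in APOE2 replicate 2 at 0.603 CPM, where the nearest APOE2 mouse had 0.300 CPM. Serpine2 was high in APOE4 replicate 2 at 201 CPM, where the nearest APOE4 mouse had 185 CPM. None of these genes was called in any comparison, and Wdfy1 held no such mouse in any genotype.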

How the results depend on the processing

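The log2 ratio of Wdfy1 ran from -1.66 to -1.60 for APOE4 against APOE3 over 27 alternatives and from -1.70 to -1.64 for APOE4 against APOE2 over 26. For the other 9 members, 711 alternative values held 0 calls, with a lowest adjusted p of 0.0682 (edgeR, DESeq2 or limma voom), and the 26 for Wdfy1 in APOE2 against APOE3 also held 0. No scaling moved the median log2 ratio of all genes past 0.007. The wider PI3P genes called for APOE4 against APOE3 numbered 1 with DESeq2. For APOE4 against APOE2 they numbered 2 with the 12 libraries compared alone, 1 at an adjusted p under 0.01, and 2 to 11 on leaving out a library. For APOE2 against APOE3 they numbered 1 at an adjusted p under 0.01 and 2 to 5 on leaving out a library. Called genes within 2 Mb of Wdfy1 numbered 0 for APOE4 against APOE3 with no sex term, with titles ending in e or f alone, at an adjusted p under 0.01 and within 1 Mb, and 0 to 1 on leaving out a library. They numbered 0 for APOE4 against APOE2 within 1 Mb. For APOE2 against APOE3 they numbered 0 with no filter, with no sex term, at an adjusted p under 0.01 and within 1 Mb, and 0 to 1 on leaving out a library. The cause of these changes was not tested, other than that fewer genes or libraries enter some of them.

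Log2 ratios of uncalled members near 0 changed sign. With titles ending in e or f alone, Wdfy3 was at -0.0254, Pikfyve at -0.0296 and Pik3c2a at -0.0172 for APOE4 against APOE3, and Pik3c2a was at -0.0015 with DESeq2 size factors, -0.0018 with DESeq2 and -0.0005 with limma voom. On leaving out a library, the log2 ratios for APOE4 against APOE3 ran from -0.0259 to 0.0348 for Wdfy3, from -0.0117 to 0.0627 for Pikfyve, from -0.0020 to 0.0458 for Vac14, from -0.0153 to 0.0104 for Pik3r4 and from -0.0429 to 0.0725 for Pik3c2a. For APOE4 against APOE2 they ran from -0.0656 to 0.0065 for Pikfyve, from -0.0356 to 0.0003 for Pik3r4 and from -0.0845 to 0.0285 for Pik3c2a. For APOE2 against APOE3 they ran from -0.0603 to 0.0043 for Wdfy3, from -0.0160 to 0.0064 for Vac14 and from -0.0070 to 0.0862 for Pik3c2a. Depth limits Wdfy4 most, with at most 219 reads per library. No paired analysis was possible because the replicate numbers follow accession order and pair no mice.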
